A study of Mus musculus with 15 samples.

Results

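Amino acid carriers of the families SLC1, SLC3, SLC6, SLC7, SLC36, SLC38 and SLC43 were described in mouse cumulus cells, which form the somatic layers around the oocyte. Members were all genes of these 7 families whose symbol stood in the deposited table of normalized values, with 1 probe per gene, the one of highest mean over the 15 arrays. The rule found 34 genes with 39 probes, of 15059 different gene symbols in that table. Of these 34 carriers, 24 were present at every stage, that is well above background on at least 4 of the 5 arrays of each stage, and the other 10 were near background in at least 1 stage. Another 25 genes of the same families had a probe, named by its accession, but were not in the table, and 16 of them were not above background on any array.

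The 3 stages of oocyte developmental competence were compared, each with 5 samples, and each sample was a pool of several B6CBAF1/J mice (a hybrid strain). NC1 cells came from 3-week-old juveniles and enclosed prophase I oocytes labelled as developmentally incompetent. C1 cells came from 8-week-old adults and enclosed developmentally competent prophase I oocytes. Both were unexpanded cumulus cells taken from punctured large follicles and freed from the oocyte by pipetting. C2 cells came from superovulated 8-week-old females, were expanded, were flushed from the oviduct with metaphase II oocytes, and were dispersed in 300 µg/ml hyaluronidase. Between NC1 and C1, stage cannot be told apart from age. Between C1 and C2, it cannot be told apart from superovulation, the place of recovery or the enzyme. The cells of each sample were measured in bulk, so fewer cells of a type and less RNA per cell cannot be told apart.

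The oocyte takes up some amino acids poorly by itself, and cumulus cells import some of them and pass them on through gap junctions. Slc38a3, a sodium-coupled carrier of histidine, glutamine and alanine, is the best known example, and its level in cumulus cells is raised by the oocyte. SLC7 light chains reach the cell surface only when bound to an SLC3 heavy chain, whereas the cationic SLC7 carriers, SLC38, SLC36, SLC6 and SLC1 proteins work without one.

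Levels are given as log2 of the array signal minus the median of the array over the 17323 probes present at every stage. A difference of 1 is 2-fold, and levels of different probes are not comparable. Each array had between 18366 and 24493 gene probes above background of 39429, and the median SD between the 5 samples of a stage was between 0.202 and 0.232. Changes were tested with limma over all 17323 probes, and a change was called at a Benjamini-Hochberg adjusted p under 0.01.

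Some arrays stood apart. C1 replicate 4 carried transcripts of expanded cumulus. The summed level of Tnfaip6, Has2, Ptx3 and Ptgs2 was 3.12 there, and between -2.60 and -1.35 in the other C1 arrays. At C2 it was between 4.22 and 5.04. In C1 replicate 4, Tnfaip6 (2.70), Ptx3 (0.81) and Ptgs2 (-1.88) stood above the other C1 arrays. Has2 (-2.59) did not, being lower than in C1 replicate 3 (-2.42). The summed level of 16 oocyte genes was between 4.04 and 5.98 at NC1 and C1 and between 3.90 and 4.21 in C2 replicates 1 to 3. It was only -0.22 and -0.12 in C2 replicates 4 and 5, and Ooep was not above background on any array. Summed levels add unlogged signals, so the brightest probes weigh most. In C2 replicates 1 to 3, Gdf9 (2.13 to 3.06) and H1foo (2.52 to 3.04) stayed within their prophase I range. Other oocyte genes were already lower there, such as Zp3, between -3.82 and -3.67 against 0.90 to 2.83. Likewise Nlrp5 lay between -3.99 and -3.91, against -0.98 to 0.80. Theca and stroma transcripts were above background on all NC1 and C1 arrays for 7 of 7 genes and summed to between 3.31 and 5.73, against between -1.02 and -0.46 at C2, where Pdgfra and Lum were not above background on any array. Red blood cell transcripts summed to between 6.20 and 8.78 at NC1, with the highest sums in replicates 1 and 2, and to between 3.40 and 5.44 at C1. The cumulus and granulosa list was itself lower at C2, between 6.04 and 6.53 against between 7.90 and 8.38 at the prophase I stages, with 7 of 9 genes called lower than at C1. The part of these differences in the results below was not tested, other than by leaving arrays out.

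Carriers changed mostly between C1 and C2. Of the 24 carriers present at every stage, 19 were called between stages by the F-test, against 51.6% of all probes tested. Between NC1 and C1, 1 of 24 was called (background 2.52%). Between C1 and C2, 18 of 24 were called, 8 higher and 10 lower at C2, while 47.6% of all probes were called, 25.4% higher and 22.2% lower. The split moved with the scaling, to 6 higher and 12 lower on the 75th percentile, 5 higher and 8 lower on spike-in probes, and 8 higher and 7 lower both on the median of all probes and in the authors' table. The median change of the 24 carriers from C1 to C2 was -0.27, beside 0.02 over all probes, and the median size of change was 1.03 beside 0.47. The C1 and C2 arrays did not overlap for 18 carriers, against 43.9% of all probes. From NC1 to C2, 17 of 24 were called, against a background of 51.5%. This comparison shares its arrays with the others. Of the called carriers, 7 were higher and 9 lower at C2 than at each of the prophase I stages. In none of the 3 pairwise comparisons were 5 carriers called, namely Slc1a4 and Slc1a5 (neutral amino acids), Slc38a2 (small neutral amino acids), Slc38a10 and Slc6a9 (glycine). Slc1a5 was nevertheless called by the F-test (adjusted p = 0.00224), whereas Slc38a9, called from C1 to C2, was not (adjusted p = 0.0241).

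Leaving out C1 replicate 4 left the 18 calls between C1 and C2 in place. With C2 replicates 4 and 5 as the only C2 arrays, those without most oocyte transcripts, 15 of the same 18 were called, without Slc38a7, Slc38a9 and Slc6a8. Arrays were placed on 4 slides that each held all stages, and within every slide 17 of the 18 called carriers changed in the same direction. The exception was Slc38a9, which sits on lysosomes and takes part in sensing arginine. It stood 0.55 lower at C2 (adjusted p = 0.00946), close to the threshold, and 0.02 higher on 1 slide. Leaving out single arrays ended its call for 12 of the 15, with changes between -0.59 and -0.45 and adjusted p-values between 0.0101 and 0.0298. It was kept without C1 replicate 4, C2 replicate 3 or NC1 replicate 4. On the median of all probes and in the authors' table the change of Slc38a9 was only -0.24 (adjusted p = 0.309 and 0.308).

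**Figure D1:**
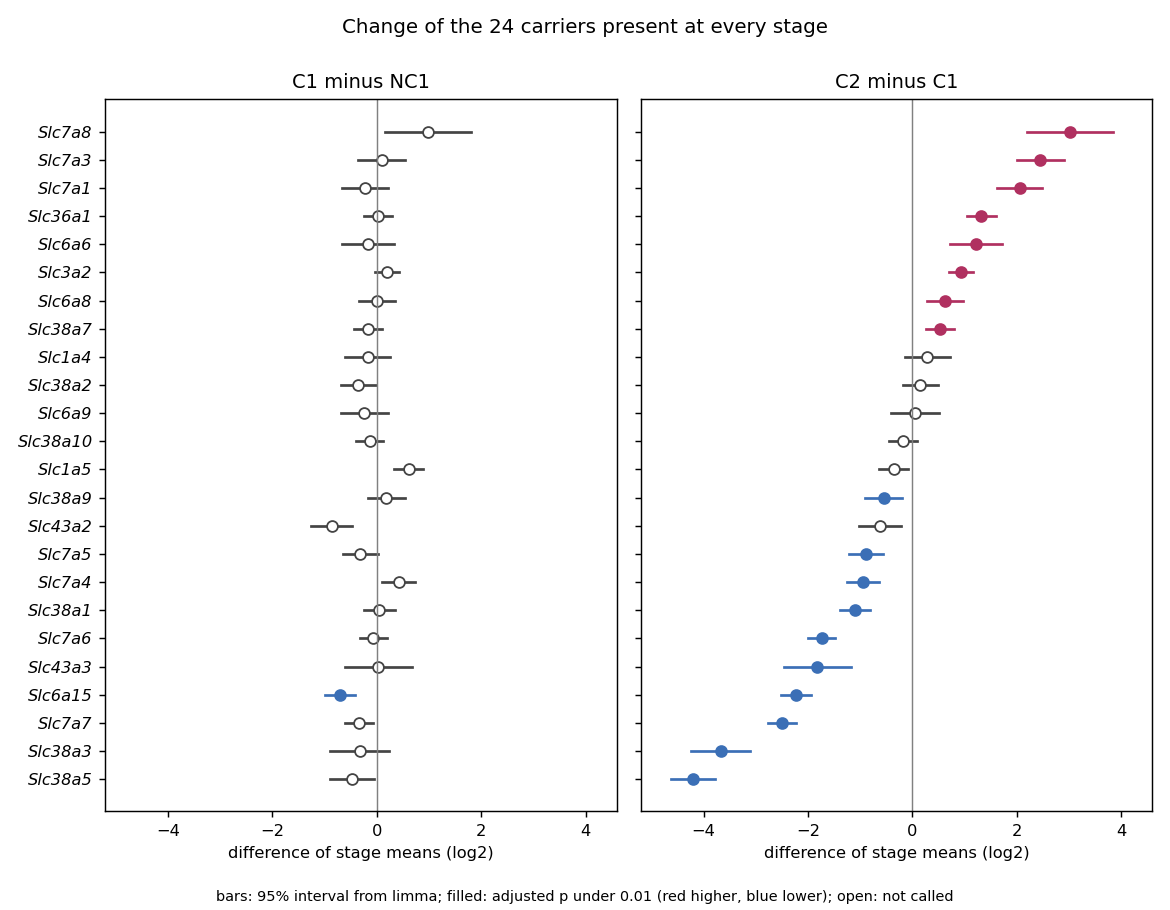
Differences of stage means on the log2 scale (x axis) for the 24 carriers present at every stage (y axis, ordered by the change from C1 to C2), C1 minus NC1 on the left and C2 minus C1 on the right, with 95% intervals as bars and called changes filled. On the right 18 carriers were called, from Slc38a5 at -4.20 to Slc7a8 at 3.03, and on the left only Slc6a15 at -0.70.

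Heavy chains were higher at C2, whereas light chains changed in both directions. Slc3a2 encodes the ubiquitous heavy chain that carries most SLC7 light chains to the membrane. Its levels were 3.88, 3.78, 3.68, 4.02 and 3.87 at NC1, 4.09, 4.12, 3.70, 4.29 and 4.01 at C1 and 4.84, 5.07, 4.91, 5.07 and 4.99 at C2. All C2 arrays lay above all others, and Slc3a2 rose by 0.93 ± 0.11 (SE, n = 5 and 5, limma adjusted p = 2e-06), with no call from NC1 to C1 (0.20, 95% interval -0.04 to 0.43). The call of Slc3a2 was lost with spike-in scaling (0.83, adjusted p = 0.0333). Slc3a1, the heavy chain of cystine and basic amino acid uptake, was not above background on any NC1 array and was above it on 1 C1 array and on all C2 arrays. Its levels were -6.09, -5.65, -7.11, -6.75 and -5.47 at NC1, -5.55, -5.56, -5.79, -6.27 and -6.08 at C1 and -4.52, -4.07, -3.86, -4.36 and -4.16 at C2. The C1 array above background was replicate 4, which had the lowest C1 level (-6.27), so this count did not follow the level. The C2 arrays were the highest without overlap, and Slc3a1 was at least 1.45-fold higher at C2 than at NC1. Slc7a9, its usual light chain, was not above background on any of the 15 arrays.

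Slc7a8 and Slc7a5 both encode light chains of system L, which exchanges large neutral amino acids, and they changed in opposite directions. Slc7a8 levels were 0.64, 0.78, 1.18, 1.34 and 0.62 at NC1, 1.09, 1.14, 1.51, 3.86 and 1.83 at C1 and 5.26, 5.03, 4.82, 4.57 and 4.88 at C2. Every C2 array lay above every other array, and the fourth C1 array, which carried expanded cumulus transcripts, lay between the stages. Slc7a8 rose from C1 to C2 by 3.03 ± 0.39 (SE, n = 5 and 5, adjusted p = 4.64e-06), the highest change among the 24 carriers, and by 3.52 without C1 replicate 4 (n = 4 and 5). On the 4 slides its change from C1 to C2 was between 0.95 and 3.76, the lowest on the slide whose C1 array was replicate 4.

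Slc7a5 levels were 1.42, 1.30, 1.91, 2.01 and 1.25 at NC1, 1.35, 0.98, 1.18, 1.56 and 1.22 at C1 and 0.49, 0.54, 0.34, 0.15 and 0.35 at C2. The C2 arrays were all below the C1 arrays, with a change of -0.89 ± 0.16 (SE, n = 5 and 5, adjusted p = 0.000125). A second Slc7a5 probe gave -0.21 (adjusted p = 0.258), so the call was carried by 1 of 2 probes, and it was lost when arrays were scaled on the median of all probes (-0.58, adjusted p = 0.0466, and alike in the authors' table) or on spike-in probes (-0.997, adjusted p = 0.0159).

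Slc7a6 and Slc7a7 exchange basic amino acids for neutral ones and sodium, and both fell. Slc7a6 levels were -1.12, -1.45, -0.82, -0.90 and -1.21 at NC1, -1.28, -0.97, -1.25, -1.10 and -1.24 at C1 and -3.12, -2.73, -2.87, -2.86 and -2.94 at C2. NC1 and C1 arrays lay in the same range and C2 arrays well below, a change of -1.74 ± 0.12 from C1 to C2 (SE, n = 5 and 5, adjusted p = 4.66e-09). Slc7a7 levels were 1.87, 1.95, 1.93, 2.01 and 2.08 at NC1, 1.66, 1.98, 1.29, 1.42 and 1.80 at C1 and -0.85, -0.64, -0.91, -1.11 and -0.85 at C2. Positive in every prophase I sample and negative in every C2 sample, Slc7a7 changed by -2.50 ± 0.13 (SE, n = 5 and 5, adjusted p = 1.19e-10). Its difference between NC1 and C1 was -0.34, with a 95% interval of -0.61 to -0.07 and an adjusted p of 0.167.

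The cystine and glutamate exchanger Slc7a11 and the small neutral amino acid exchanger Slc7a10 were near background at opposite ends of the series. Slc7a11 levels were -5.79, -5.13, -7.19, -6.29 and -6.59 at NC1, -5.87, -6.31, -5.84, -2.17 and -6.98 at C1 and -3.05, -2.97, -2.86, -2.33 and -2.96 at C2. No NC1 array and only the fourth C1 array were above background, against all C2 arrays, and that C1 array was higher than every C2 array. Slc7a11 was at least 3.71-fold higher at C2 than at NC1. Slc7a10 levels were -3.39, -3.26, -3.08, -3.27 and -3.22 at NC1, -4.93, -3.65, -3.63, -4.87 and -4.05 at C1 and -6.51, -6.52, -6.32, -6.62 and -6.62 at C2. All NC1 arrays, 3 of 5 C1 arrays and no C2 array were above background. At C1 this did not follow the level, since replicate 4 (-4.87) was above background and replicate 3 (-3.63) was not. The stages did not overlap, and Slc7a10 was at least 2.93-fold higher at NC1 than at C2. These bounds compare the mean level where the carrier was seen with the lowest signal that was above background on each array of the dim stage, or the probe's own signal where higher. Carriers that entered a fit only through the stages in which they were high are given with no test.

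**Figure D2:**
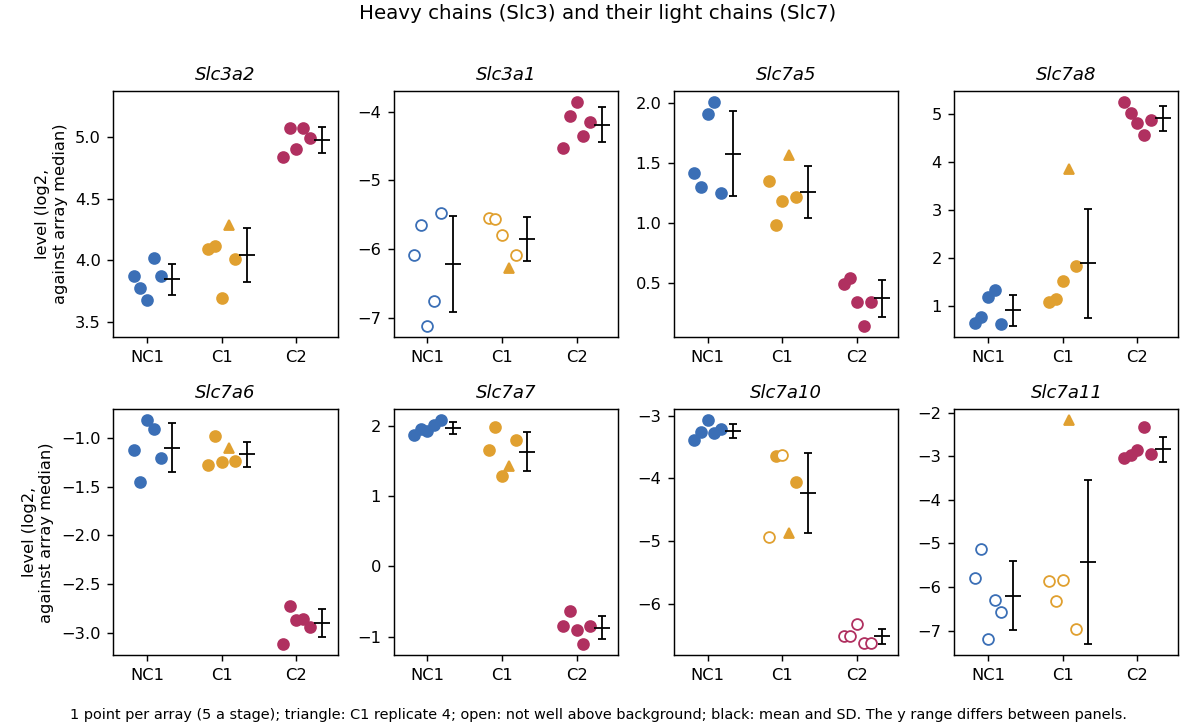
Level of 2 heavy chains and 6 light chains in each array (y axis, log2 against the array median, with its own range in each panel) by stage (x axis), with the mean and SD of 5 arrays in black. Slc3a2 and Slc7a8 were highest at C2 and Slc7a5, Slc7a6 and Slc7a7 lowest, while C1 replicate 4 (triangle) stood at 3.86 for Slc7a8 and at -2.17 for Slc7a11, above the other C1 arrays.

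Promoter windows of 3 light chains are shown because carriers of this family that rose and fell can be set side by side for the core of the amino acid response element, TGATGNAA, the site at which ATF4 and C/EBP factors bind in amino acid shortage. The windows run from 250 bases before to 50 after the RefSeq start, on the strand of the gene, in build GRCm38.p6, and matches on either strand are in capitals. Slc7a11 (chr3:50443564-50443863, minus strand) has a match on each strand, at -66 and at -47 from the start, Slc7a7 (chr14:54417895-54418194, minus strand) has matches at -141 and at -1, and Slc7a8 (chr14:54781837-54782136, minus strand) has none.
Slc7a11: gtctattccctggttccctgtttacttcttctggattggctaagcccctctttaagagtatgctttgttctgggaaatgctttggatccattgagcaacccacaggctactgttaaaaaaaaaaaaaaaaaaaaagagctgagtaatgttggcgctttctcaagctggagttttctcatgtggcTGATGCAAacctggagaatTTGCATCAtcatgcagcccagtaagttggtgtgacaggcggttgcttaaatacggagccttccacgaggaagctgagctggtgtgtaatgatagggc
Slc7a7: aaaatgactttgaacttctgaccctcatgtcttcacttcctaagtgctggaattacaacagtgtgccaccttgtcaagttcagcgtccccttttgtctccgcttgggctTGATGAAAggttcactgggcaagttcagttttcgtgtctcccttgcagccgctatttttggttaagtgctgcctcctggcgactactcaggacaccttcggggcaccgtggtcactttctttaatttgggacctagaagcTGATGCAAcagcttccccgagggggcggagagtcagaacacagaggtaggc
Slc7a8: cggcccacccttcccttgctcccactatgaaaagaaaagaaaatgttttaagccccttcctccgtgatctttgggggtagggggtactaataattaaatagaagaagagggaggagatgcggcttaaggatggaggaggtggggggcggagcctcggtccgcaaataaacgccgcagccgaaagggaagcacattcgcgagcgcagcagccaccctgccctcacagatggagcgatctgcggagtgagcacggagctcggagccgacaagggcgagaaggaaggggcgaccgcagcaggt
RefSeq gave 34 windows for 23 of the 34 carriers. This motif was in 4 of these 34 windows, of Slc7a11, Slc7a7 and Slc1a4, and in 3.97% of all 32851 windows. Slc7a11 was higher at C2, Slc7a7 fell, and Slc1a4 was not called. The antioxidant response core TGACNNNGC, which NRF2 (Nfe2l2) binds, was found in 8 of the 34 carrier windows and in 12.4% of all windows. These 8 belonged to 6 carriers, namely Slc36a1, Slc38a2, Slc43a1, Slc6a9, Slc7a1 and Slc7a6. Neither the cyclic AMP response element TGACGTCA (1.79% of all windows) nor CAAGGTCA, the site of the nuclear receptors NR5A1 and NR5A2 (1.56%), was found in any carrier window.

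The cationic carriers rose. Slc7a1 and Slc7a3 take up arginine, lysine and ornithine without a heavy chain. Slc7a1 levels were 2.09, 2.35, 2.63, 2.40 and 2.29 at NC1, 2.24, 2.02, 2.47, 2.23 and 1.68 at C1 and 3.40, 4.16, 4.74, 4.14 and 4.48 at C2. Those at NC1 and C1 overlapped and those at C2 were higher throughout, so that Slc7a1 rose 4.15-fold from C1 to C2 (log2 2.05 ± 0.21, SE, n = 5 and 5, adjusted p = 2.93e-07). Slc7a3 levels were -2.78, -3.17, -3.85, -3.36 and -3.54 at NC1, -3.13, -3.05, -2.82, -3.40 and -3.83 at C1 and -0.99, -0.67, -0.38, -1.15 and -0.79 at C2. Again only the C2 arrays stood apart, with a rise of 2.45 ± 0.21 (SE, n = 5 and 5, adjusted p = 5.17e-08). Slc7a4, a relative of these carriers with no settled substrate, went the other way and changed by -0.95 ± 0.15 (SE, adjusted p = 3.3e-05), from 2.51 ± 0.23 at C1 to 1.56 ± 0.22 at C2 (SD, n = 5 each). Scaling on the median of all probes gave -0.64 for Slc7a4, which was not called (adjusted p = 0.0258), nor was it in the authors' table (-0.64, adjusted p = 0.0257).

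Among the 24 carriers present at every stage, those of system N fell the most. Slc38a3 and Slc38a5 move glutamine, histidine and other neutral amino acids in exchange for protons. Slc38a5 levels were 6.19, 6.10, 6.74, 6.67 and 6.36 at NC1, 5.86, 6.0, 5.88, 5.96 and 5.98 at C1 and 1.58, 1.53, 1.05, 2.32 and 2.18 at C2. The C2 arrays lay far below the rest, and Slc38a5 fell 18.4-fold (log2 -4.20 ± 0.20, SE, n = 5 and 5, adjusted p = 6.01e-11), the lowest change among the 24 carriers. Slc38a3 levels were 2.11, 1.69, 2.17, 2.39 and 1.80 at NC1, 2.18, 2.34, 0.84, 1.91 and 1.25 at C1 and -1.83, -1.52, -1.68, -2.45 and -2.36 at C2. Its C1 arrays were spread over a wide range that overlapped the NC1 arrays and did not reach the C2 arrays, and Slc38a3 fell 12.7-fold from C1 to C2 (log2 -3.67 ± 0.27, SE, n = 5 and 5, adjusted p = 6.53e-09). C2 replicates 4 and 5, the arrays with low oocyte transcripts, were the lowest for Slc38a3 and the highest for Slc38a5. Between NC1 and C1 neither was called, with a difference of -0.33 (95% interval -0.89 to 0.23) for Slc38a3 and -0.48 (-0.90 to -0.05) for Slc38a5.

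System A carriers, which take up small neutral amino acids with sodium, did not move together. Slc38a1 levels were 2.15, 2.23, 2.65, 2.45 and 2.26 at NC1, 2.40, 2.33, 2.36, 2.81 and 2.08 at C1 and 1.12, 1.08, 1.44, 1.39 and 1.43 at C2. NC1 and C1 arrays overlapped and C2 arrays were lower, and the change from C1 to C2 was -1.10 ± 0.14 (SE, n = 5 and 5, adjusted p = 3.47e-06), with -1.08 from a second probe. Slc38a2 levels were 4.23, 4.32, 4.06, 3.88 and 4.14 at NC1, 3.79, 3.94, 3.95, 3.73 and 3.44 at C1 and 3.39, 3.75, 4.11, 4.11 and 4.25 at C2. Its stages overlapped, with a difference from C1 to C2 of 0.15 (95% interval -0.18 to 0.48, adjusted p = 0.422). Slc38a4 stood at -1.30 ± 0.24 at NC1, -2.52 ± 0.44 at C1 and -3.98 ± 0.18 at C2 (SD, n = 5 each), and was above background on all NC1 and C1 arrays and on 3 of 5 C2 arrays. Its C1 arrays were all below its NC1 arrays, with a measured difference of -1.22 from NC1 to C1, given with no test. Slc38a1, Slc38a2 and Slc38a4 are neighbours on chromosome 15, with no other protein-coding gene between them. Slc38a7, a lysosomal glutamine carrier, rose by 0.53 ± 0.13 (SE, adjusted p = 0.00202), a call that was lost on the 75th percentile (0.42, adjusted p = 0.0115), with normexp background correction (0.38, adjusted p = 0.0102), with spike-in scaling (0.42, adjusted p = 0.319) and with C2 replicates 4 and 5 as the only C2 arrays (0.38, adjusted p = 0.0617). Slc38a10, whose transport role is less known, differed by -0.18 (95% interval -0.44 to 0.09).

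SLC6 carriers use sodium, and many of them also chloride. Slc6a15, a carrier of branched-chain amino acids and proline, was the only one of the 24 carriers called at both steps. Its levels were 0.02, -0.03, -0.25, -0.38 and 0.32 at NC1, -1.02, -0.51, -0.54, -0.90 and -0.85 at C1 and -2.87, -3.03, -3.07, -2.95 and -3.03 at C2. The 3 stages followed one another without overlap, with changes of -0.70 ± 0.13 from NC1 to C1 (SE, n = 5 and 5, adjusted p = 0.00419) and of -2.23 ± 0.13 from C1 to C2 (adjusted p = 8.07e-10). The first step was between -0.82 and -0.51 within the 4 slides, and its call was lost with slide as a block (-0.68, adjusted p = 0.016), without C1 replicate 4 (-0.67, adjusted p = 0.011), and with spike-in scaling (-0.54, adjusted p = 0.833), without a filter (adjusted p = 0.0237) and without moderated variances (adjusted p = 0.0103). Leaving out C1 replicate 1 or 5, or NC1 replicate 1, 2 or 5, also ended the call, with changes between -0.69 and -0.61 and adjusted p-values between 0.0119 and 0.0158.

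Slc6a6 imports taurine and beta-alanine. Its levels were 3.47, 3.92, 3.88, 3.31 and 3.22 at NC1, 3.55, 3.58, 3.62, 3.33 and 2.86 at C1 and 3.91, 4.14, 4.99, 4.86 and 5.18 at C2. The C2 arrays split, with replicates 1 and 2 nearest to the C1 arrays, and the lowest of them overlapped the NC1 arrays. Slc6a6 rose from C1 to C2 by 1.23 ± 0.24 (SE, n = 5 and 5, adjusted p = 0.000289). Slc6a8, the creatine carrier, went from 0.76 ± 0.31 to 1.38 ± 0.06 (SD, n = 5 each), a rise of 0.62 ± 0.16 (SE, adjusted p = 0.00381) that was not called with slide as a block (0.58, adjusted p = 0.0117), on the 75th percentile, on spike-in probes, with quantile normalization or without a filter (0.50 to 0.62, adjusted p = 0.0101 to 0.231), nor without C1 replicate 2 (0.53, adjusted p = 0.0124) or C1 replicate 5 (0.55, adjusted p = 0.0122). Slc6a9, a glycine carrier also expressed by oocytes, had levels of 2.60, 2.29, 3.16, 3.42 and 2.74 at NC1, 2.87, 2.06, 2.45, 2.92 and 2.72 at C1 and 2.68, 2.94, 2.92, 2.27 and 2.45 at C2. All 3 stages overlapped, with C2 replicates 4 and 5 lowest of the C2 arrays, and the difference from C1 to C2 was 0.05 (95% interval -0.41 to 0.50, adjusted p = 0.864).

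**Figure D3:**
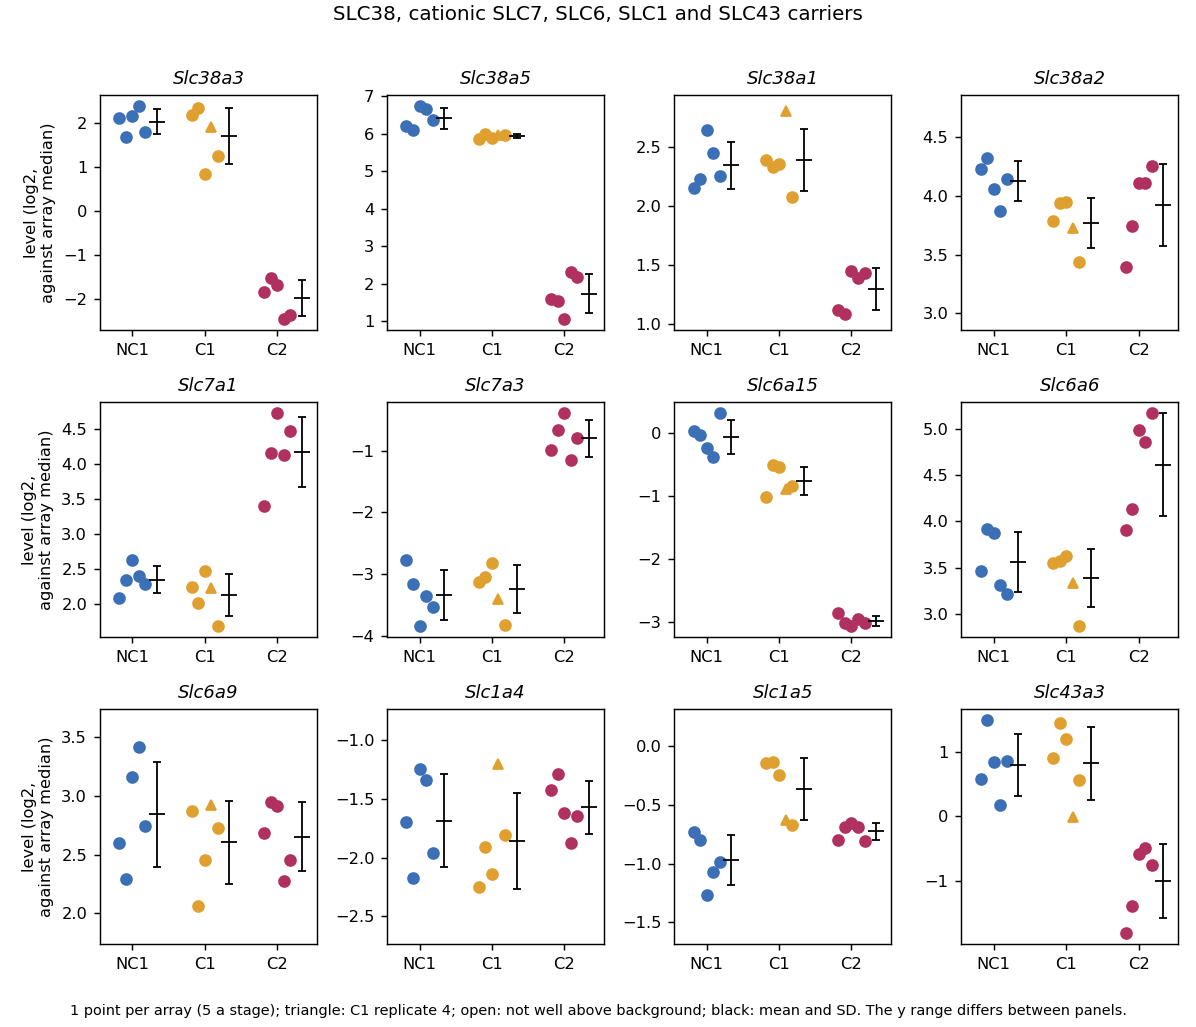
Level of 12 carriers in each array (y axis, log2 against the array median, with its own range in each panel) by stage (x axis), with the mean and SD of 5 arrays in black and C1 replicate 4 as a triangle. Slc38a3 and Slc38a5 were lower and Slc7a1 and Slc7a3 higher in every C2 array than in any other array, Slc6a15 stepped down at each stage, and the stages of Slc38a2, Slc6a9 and Slc1a4 overlapped.

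Neutral SLC1 carriers exchange alanine, serine, cysteine and, for Slc1a5, glutamine. Slc1a5 levels were -0.73, -0.80, -1.27, -1.07 and -0.99 at NC1, -0.14, -0.14, -0.24, -0.63 and -0.67 at C1 and -0.80, -0.69, -0.65, -0.68 and -0.81 at C2. Every C1 array was above every NC1 array, and the difference of 0.61 ± 0.13 (SE, n = 5 and 5) had an adjusted p of 0.0101, just outside the threshold. A second probe gave 0.57 (adjusted p = 0.038). From C1 to C2 it was -0.36 (95% interval -0.64 to -0.08, adjusted p = 0.0254). Slc1a4 levels were -1.70, -2.17, -1.25, -1.34 and -1.96 at NC1, -2.25, -1.91, -2.14, -1.20 and -1.80 at C1 and -1.42, -1.29, -1.62, -1.87 and -1.65 at C2. They overlapped at all stages, with a difference from C1 to C2 of 0.29 (95% interval -0.15 to 0.72).

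The acidic amino acid carriers Slc1a1 and Slc1a6, which take up glutamate and aspartate, had their lowest levels at C2. Slc1a6 lay between -0.25 and 0.16 at NC1 and stood at -0.36 ± 0.33 at C1 and -4.66 ± 0.12 at C2 (SD, n = 5 each), where 1 of 5 arrays was above background. Slc1a1 stood at -3.45 ± 0.17, -4.09 ± 0.22 and -5.52 ± 0.58, above background on 5, 3 and 1 arrays. Since most C2 arrays were near background, the measured differences from C1 to C2, -4.30 for Slc1a6 and -1.43 for Slc1a1, are given with no test.

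SLC36 carriers move small amino acids such as proline, glycine and alanine together with protons. Slc36a1, Slc36a2 and Slc36a3 lie next to each other on chromosome 11, and all 3 were higher in every C2 array than in any other. Slc36a1 levels were -3.14, -3.27, -3.13, -2.93 and -3.06 at NC1, -3.25, -3.21, -2.96, -2.97 and -3.04 at C1 and -1.98, -1.94, -1.26, -1.83 and -1.80 at C2. It rose by 1.32 ± 0.13 (SE, n = 5 and 5, adjusted p = 2.04e-07), with the third C2 array above the rest. Slc36a2 levels were -3.98, -4.27, -4.41, -4.51 and -4.57 at NC1, -6.0, -4.38, -3.40, -5.57 and -4.14 at C1 and 0.62, 0.86, 1.08, 1.09 and 1.07 at C2. It was above background on 4 NC1, 3 C1 and 5 C2 arrays, at C1 in replicate 4 (-5.57) but not in replicate 2 (-4.38). As measured, Slc36a2 was 49.8-fold higher at C2 than at C1 (log2 5.64), given with no test since its C1 levels were near background. Slc36a3 levels were -4.71, -6.69, -7.13, -6.59 and -6.44 at NC1, -4.54, -3.75, -4.06, -5.77 and -4.80 at C1 and -2.35, -2.07, -1.91, -2.08 and -1.92 at C2. None of the NC1 arrays, 3 of 5 C1 arrays and all C2 arrays were above background. At C1, replicate 4 (-5.77) was above background and replicate 3 (-4.06) was not. Slc36a3 was at least 6.32-fold higher at C2 than at NC1. Slc36a4, on another chromosome, was above background on 4, 3 and 2 arrays at NC1, C1 and C2. Its measured difference from C1 to C2, -0.40, is given with no test.

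Promoter windows of Slc36a1 and Slc36a3 are shown as those of neighbouring carriers that were both higher at C2, with matches to TGACNNNGC in capitals. Slc36a1 (chr11:55204090-55204389, plus strand) has 1 match, which starts at the second transcribed base, and Slc36a3 (chr11:55151659-55151958, minus strand) has none.
Slc36a1: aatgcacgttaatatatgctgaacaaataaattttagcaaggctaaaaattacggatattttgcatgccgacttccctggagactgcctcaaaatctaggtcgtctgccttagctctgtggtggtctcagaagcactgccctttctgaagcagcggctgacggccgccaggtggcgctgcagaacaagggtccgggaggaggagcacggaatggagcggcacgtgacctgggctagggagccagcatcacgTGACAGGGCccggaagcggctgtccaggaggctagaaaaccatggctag
Slc36a3: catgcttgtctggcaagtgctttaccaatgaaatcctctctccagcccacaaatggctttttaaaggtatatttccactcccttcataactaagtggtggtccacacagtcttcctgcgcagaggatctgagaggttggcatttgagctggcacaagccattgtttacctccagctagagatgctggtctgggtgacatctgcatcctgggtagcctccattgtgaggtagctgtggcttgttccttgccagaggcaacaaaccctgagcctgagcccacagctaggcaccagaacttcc

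**Figure D4:**
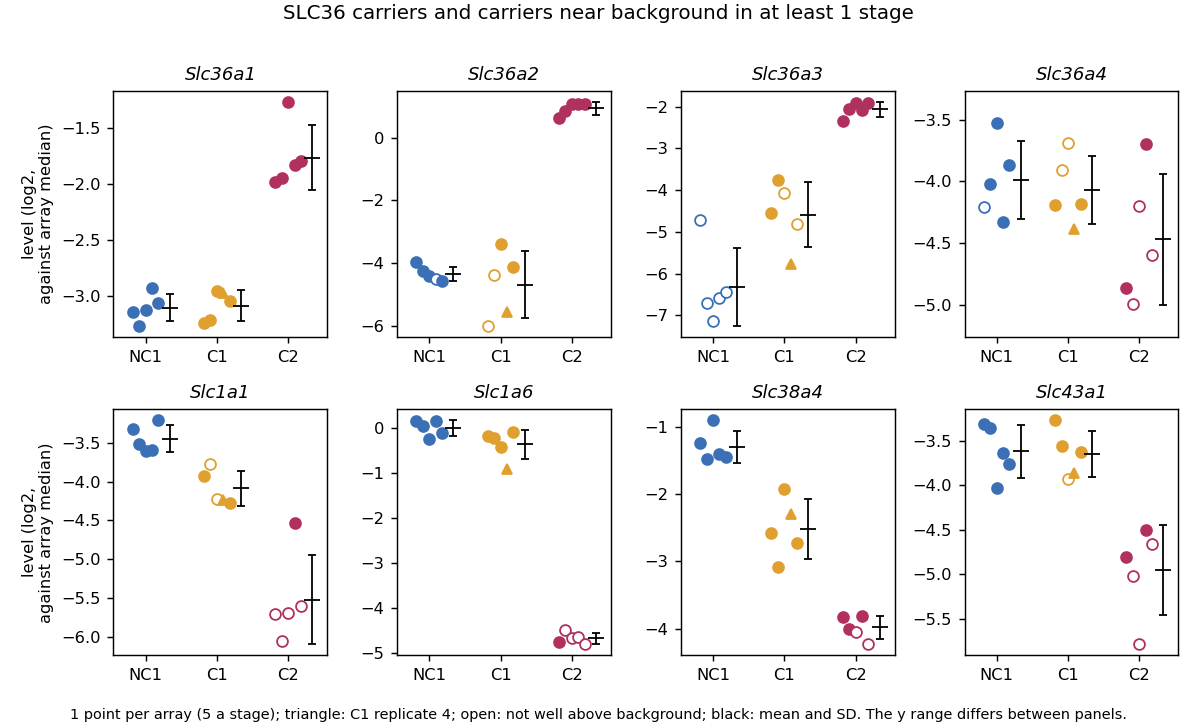
Level of the SLC36 carriers and of 4 further carriers near background in at least 1 stage, in each array (y axis, log2 against the array median, with its own range in each panel) by stage (x axis), with open points where the probe was not well above background. Slc36a1, Slc36a2 and Slc36a3 were highest in the C2 arrays, where Slc36a2 lay between 0.62 and 1.09, and Slc1a6 and Slc38a4 were lowest there.

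SLC43 carriers facilitate transport without sodium, Slc43a1 and Slc43a2 of large neutral amino acids and Slc43a3 of nucleobases. Slc43a3 levels were 0.58, 1.49, 0.83, 0.18 and 0.86 at NC1, 0.89, 1.44, 1.20, -0.01 and 0.56 at C1 and -1.82, -1.39, -0.59, -0.50 and -0.75 at C2. NC1 and C1 arrays overlapped and all C2 arrays were lower, with a change of -1.82 ± 0.30 (SE, n = 5 and 5, adjusted p = 7.03e-05). Slc43a2 went from -0.27 ± 0.49 at NC1 to -1.14 ± 0.23 at C1 and -1.75 ± 0.14 at C2 (SD, n = 5 each). Its steps of -0.87 and -0.61 each missed the threshold narrowly (adjusted p = 0.0112 and 0.0107), and from NC1 to C2 it changed by -1.48 (adjusted p = 3.7e-06). Slc43a1 was above background on 5 NC1, 4 C1 and 2 C2 arrays, with a measured difference from C1 to C2 of -1.30, given with no test.

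Genes that use or sense the carried amino acids were counted in 6 lists. In the list of carriers of other families, 2 of 12 genes were called between C1 and C2, below the 47.6% of all probes. The 12 include Slc7a6os, which is not a carrier and was not called (0.37). Slc16a10, a facilitator of aromatic amino acids, rose by 1.98 and Slc25a13, a mitochondrial aspartate and glutamate carrier, fell by 1.26. Enzymes of glutamine, glutamate, alanine and aspartate had 13 of 18 genes called, 5 higher and 8 lower. Asl rose by 1.44 and Ass1, which precedes it in arginine synthesis, fell by 3.02. Among serine, glycine and cysteine enzymes, 12 of 15 were called, 5 higher and 7 lower, with Gss, which completes glutathione, at 1.89 and Cbs, which makes cystathionine, at -3.82. Enzymes of branched-chain, aromatic and basic amino acids had 8 of 14 called, 2 higher and 6 lower, from Bcat1 (branched-chain aminotransferase) at 1.81 to Nos2 (nitric oxide synthesis from arginine) at -1.64.

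Amino acid response and sensing was the list with the most genes higher at C2, with 17 of 34 called higher and 4 lower, a median of 0.52, where 25.4% of all probes were called higher and 22.2% lower. Deptor, an inhibitor of mTOR, rose by 2.63 and the stress transcription factor Atf3 fell by 1.85, whereas Atf4 rose by 0.72. Regulators of carrier trafficking had 3 of 10 called higher and 4 lower, beside the same background, from the kinase Sgk1 at 2.90 to Txnip, which limits glucose uptake, at -2.45. In the order given, the lists held 12, 18, 15, 14, 34 and 10 genes present at every stage. Between NC1 and C1, 4 genes of all lists were called (background 2.52%), namely Sgk1 (2.57), Atf3 (1.83) and the scaffold Slc9a3r1 (1.04) higher and Nos2 (-0.97) lower. From NC1 to C2, 64 genes of the lists were called (background 51.5%), beside 63 from C1 to C2 (background 47.6%), and spike-in scaling reduced these counts to 37 and 33.

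**Figure D5:**
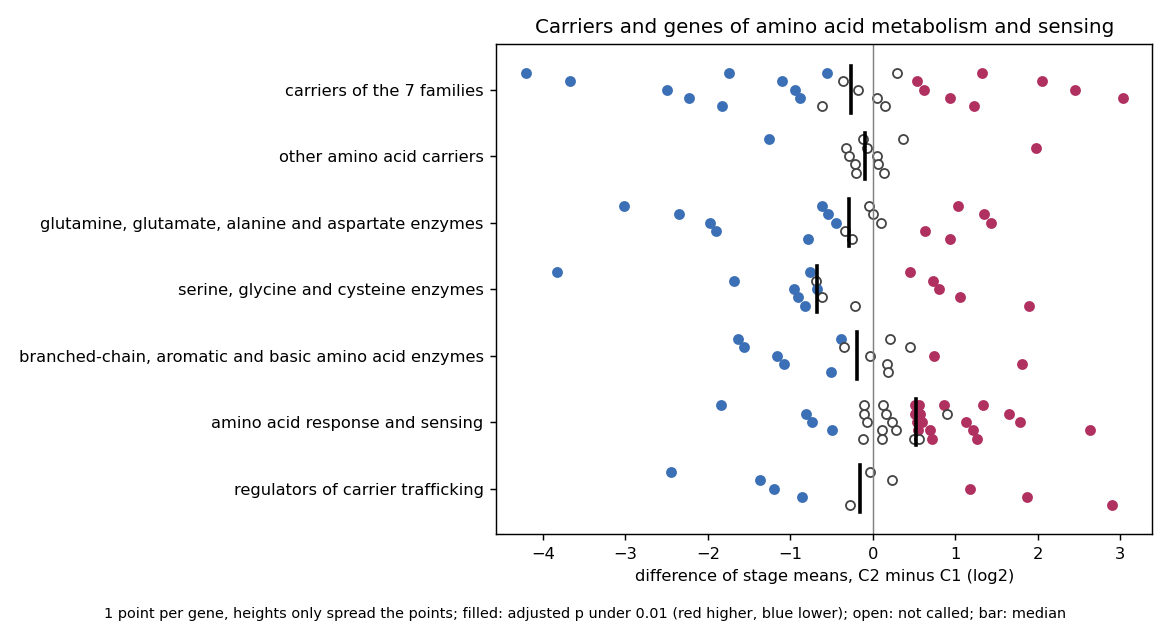
Difference of stage means from C1 to C2 on the log2 scale (x axis) for the 24 carriers and for the genes of 6 lists (y axis), 1 point per gene, filled where called and with the median as a bar. Medians lay between -0.68 for serine, glycine and cysteine enzymes and 0.52 for amino acid response and sensing, with -0.27 for the carriers.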

How the data were processed

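Cumulus cell RNA (0.35 µg a sample) was labelled with Cy3 and hybridised to 1-colour Agilent 4x44K arrays. Spot intensity (processed signal, background-subtracted, and the background itself) was deposited by the authors as scanner output, for which the labels name Agilent Feature Extraction 10.5.1.1 and the file headers 10.7.1.1. A table of log2 values was also deposited by the authors. Its 20855 gene probes were used to find the carriers, and its values as an alternative scaling.

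Signals were averaged per probe, put on the log2 scale and centred on each array's median over 17323 probes well above background on at least 4 of 5 arrays of every stage. Spots that the scanner software marked as outliers were left out, which left 20 values missing in 19 probes and none in the carriers. Tests were limma 3.58.1 (R 4.3.3) on all 15 arrays with stage as factor, a moderated F-test and 3 contrasts, adjusted by Benjamini-Hochberg over all probes, at 0.01 as in the methods. The fit was tested on simulated data. Replicates were separate pools of mice, so the spread is between pools.

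Members, gene lists and tests were chosen with earlier results of these data known. Every array's value was given for carriers called between NC1 and C1, for the 6 highest and 6 lowest called changes without overlap from C1 to C2, and for 16 carriers named for their role. Those of Slc36a2 and Slc36a3 were also given, outside this rule. For each list the highest and lowest called changes from C1 to C2 were named. Atf4 and Slc7a6os, which were neither, were named as well. Probes were named by RefSeq accession (26055 of 39429) or by the table (2770). Markers of cumulus, oocyte, theca and stroma and red blood cells are given above. Leukocyte markers had 1 of 3 genes called higher at C2 than at C1, oviduct epithelium markers 2 of 3 lower, and endothelium markers 1 of 2 higher. The third oviduct marker, Ovgp1, was not called from C1 to C2. It lay between -0.33 and 3.06 at C2 and between -3.66 and 0.97 at C1. Oviduct markers summed to between -0.03 and 3.13 at C2 and between -0.78 and 1.37 at C1, and 1 of 3 was called higher at C2 than at NC1. Alternatives covered scaling, background, filter, blocks, variance, threshold, probe choice and each array left out. Protein sequences were not used here.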

Additional observations from a re-analysis of the deposited data

Results flagged for a closer look

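In 102 groups of 5 arrays (34 carriers at 3 stages), 5 had 1 array whose gap to its nearest neighbour took over 0.71 of the range of the group, where chance gives about 1 in 20 groups. C1 replicate 4 was the high array for 2 carriers, at 3.86 for Slc7a8 (others between 1.09 and 1.83) and at -2.17 for Slc7a11 (others between -6.98 and -5.84). The same array had a summed level of expanded cumulus transcripts of 3.12, against at most -1.35 in the other C1 arrays. Slc7a11 was also high in C2 replicate 4, at -2.33 against between -3.05 and -2.86. Slc36a1 was high in C2 replicate 3, at -1.26 against between -1.98 and -1.80. Slc36a3 in NC1 replicate 1 stood at -4.71, against between -7.13 and -6.44, and was not above background on any of these 5 arrays.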

How the results depend on the processing

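Of the 19 called changes of carriers at the steps NC1 to C1 and C1 to C2, 12 kept their call under each of the 32 settings in which single carriers were refitted, 7 lost it under at least 1 setting and none changed direction. The count between NC1 and C1 (1) became 2 with the 75th percentile, normexp (run on the median signal), quantile normalization, trended and robust variances, or probes above background on all 15 arrays, and 3 at an adjusted p of 0.05. It became 0 without a filter, without moderated variances, with spike-in scaling, with slide as a block, or with 2-fold required, and lay between 0 and 2 when single arrays were left out. Chosen after seeing the data, it was 0 with C2 replicates 4 and 5 as the only C2 arrays and 2 with NC1 replicates 3 to 5 as the only NC1 arrays. The other total counts of carriers stayed within 1.5 times, from 12 (2-fold required) to 20 for C1 to C2, while those called higher at C2 fell from 8 to 5 with spike-in scaling. Genes called in the partner lists fell from 63 to 33 (C1 to C2) and from 64 to 37 (NC1 to C2) with spike-in scaling, and from 4 to 2 (NC1 to C1) with spike-in scaling, the authors' table, the median of all probes or no filter, with a range of 2 to 5 over single arrays left out. Cases of a carrier seen on every array at one stage but on no array at another rose from 4 to 9 when 4 of 5 and 1 of 5 arrays were enough. Under normexp, which was run with an offset of 50 added to every signal, the bounds on the log2 scale were smaller. They were 1.73 (Slc36a3), 1.08 (Slc7a10), 1.26 (Slc7a11) and 0.42 (Slc3a1), beside 2.66, 1.55, 1.89 and 0.53. How much of this came from the offset was not tested. The median of all probes and the authors' table moved the median change of all probes from C1 to C2 to 0.33 and from NC1 to C1 to -0.14. Spike-in scaling moved the latter to 0.13.

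Replicate numbers did not pair the arrays over all 3 stages. Over the same-numbered arrays on different slides, deviations from the stage means had a median correlation of 0.002. Of 15 arrays, 5 correlated best with their own number. Same-numbered arrays of NC1 and C1 correlated at 0.07, 0.35, 0.06, 0.34 and 0.34 (replicates 1 to 5), differently numbered ones between -0.39 and 0.29. Same-numbered pairs with a C2 array lay between -0.24 and 0.21. Whether pools of NC1 and C1 were paired was not tested. With the replicate block, 1 carrier was called from NC1 to C1 (Slc43a2 in place of Slc6a15), 19 from C1 to C2 and 16 from NC1 to C2.

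Signals near background limit 10 of the 34 carriers, for which differences are compressed and only bounds hold where a stage was dark.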
